A study of Sus scrofa with 22 samples.

Results

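The genes described here form the redox defence of the porcine endometrium, together with the metallothioneins, the ferritins and the NADPH oxidases. Members were found by a rule on gene symbols, which itself uses no expression values. The rule was set with earlier results of these data known. They comprise superoxide dismutases and catalase, glutathione peroxidases, peroxiredoxins, the thioredoxin and glutaredoxin systems, glutathione synthesis and transfer, and the NRF2 axis. Of 61 annotated porcine genes that the rule finds, 50 were listed in the count tables, out of 12401 genes listed in all. All 50 were listed for luminal epithelium (LE) and glandular epithelium (GE), and 49 for stroma (S), where GSTO1 was missing. The other 11 were NOX1, NOX3, NOX5, DUOX1, DUOX2, DUOXA1, DUOXA2, GPX2, GPX5, GPX6 and TXNRD2, which were listed in no table and were not analysed here.

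RNA-seq was performed on cells collected by laser capture microdissection (LCM) from frozen endometrium of 8 gilts on Day 12, 4 of them pregnant (gilts 01, 03, 05 and 14) and 4 cyclic controls (gilts 02, 04, 06 and 13). All gilts were prepuberal crossbreeds of German Landrace and Piétrain with ovulation synchronised by PMSG followed by hCG. The pregnant gilts had been inseminated with semen, and the controls with semen supernatant freed of sperm. LE and GE came from each of the 8 gilts and S from 6 of them (3 per group), which gives 22 libraries, each started from a picogram amount of RNA from a small number of cells. The question was how the presence of conceptuses changes transcript levels in each cell type.

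Superoxide dismutases convert superoxide to hydrogen peroxide, which catalase, glutathione peroxidases and peroxiredoxins remove. Glutaredoxins and the thioredoxin system, with NADPH as the source of electrons, keep protein thiols reduced, and glutathione is made by the glutamate-cysteine ligase GCLC/GCLM and the synthetase GSS. The transcription factor NRF2 (NFE2L2), held back by KEAP1, drives many of these genes. Metallothioneins are small cysteine-rich proteins that bind zinc and copper, and the metal-responsive factor MTF1 induces their genes through metal response elements (MRE) in the promoter.

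The largest decreases among the members were those of the metallothioneins in LE of pregnant gilts, so the promoters of these genes are shown. MT3, MT1D and MT1A lie on the plus strand of chromosome 6 in the assembly Sscrofa11.1. MT-2B and LOC102166944, which lie between them, were listed in the tables but are not matched by the symbol rule. They were added as neighbours after the annotation and their values had been seen and are not counted as members. The 250 bases upstream of each annotated start follow, from the RefSeq annotation of Sscrofa11.1, with MRE cores (TGCACNC or TGCGCNC, on either strand) in capitals.
MT3, chr6:18634485-18634734, plus strand: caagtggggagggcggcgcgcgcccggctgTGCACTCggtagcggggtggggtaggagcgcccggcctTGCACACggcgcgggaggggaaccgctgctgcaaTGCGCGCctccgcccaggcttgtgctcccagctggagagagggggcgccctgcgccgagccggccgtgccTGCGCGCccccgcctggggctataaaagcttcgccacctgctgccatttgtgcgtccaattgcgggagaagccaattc
MT-2B, chr6:18644875-18645124, plus strand: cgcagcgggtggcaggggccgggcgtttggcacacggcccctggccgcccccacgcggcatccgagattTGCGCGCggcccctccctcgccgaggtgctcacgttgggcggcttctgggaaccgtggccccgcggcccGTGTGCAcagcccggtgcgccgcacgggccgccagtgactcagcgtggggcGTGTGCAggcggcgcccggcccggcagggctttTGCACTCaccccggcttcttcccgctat
MT1D, chr6:18650735-18650984, plus strand: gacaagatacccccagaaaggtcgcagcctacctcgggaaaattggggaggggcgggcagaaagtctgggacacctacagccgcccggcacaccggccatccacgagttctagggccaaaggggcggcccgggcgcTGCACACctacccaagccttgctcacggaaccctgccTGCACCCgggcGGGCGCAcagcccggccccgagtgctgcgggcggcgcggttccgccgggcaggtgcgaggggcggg
LOC102166944, chr6:18660415-18660664, plus strand: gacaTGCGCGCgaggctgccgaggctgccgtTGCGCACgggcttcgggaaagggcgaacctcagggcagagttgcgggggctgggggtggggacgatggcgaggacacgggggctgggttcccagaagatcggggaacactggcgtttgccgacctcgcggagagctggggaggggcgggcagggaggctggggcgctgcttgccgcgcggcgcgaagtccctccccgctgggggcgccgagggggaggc
MT1A, chr6:18671766-18672015, plus strand: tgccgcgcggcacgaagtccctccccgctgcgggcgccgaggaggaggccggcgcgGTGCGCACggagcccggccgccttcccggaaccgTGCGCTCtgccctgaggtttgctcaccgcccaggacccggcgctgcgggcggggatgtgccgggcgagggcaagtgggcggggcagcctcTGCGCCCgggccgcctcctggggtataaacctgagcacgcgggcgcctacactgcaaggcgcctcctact

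The windows of MT3, MT-2B and MT1A hold 4 MRE cores each, of which 2 in MT1A overlap on opposite strands, that of MT1D holds 3 and that of LOC102166944 holds 2. Among 12397 promoter windows of listed genes, 26.9% hold at least 1 core, 1.9% hold at least 3 and 0.44% hold at least 4. The core of the antioxidant response element used by NRF2 (TGACNNNGC, both strands) is in the windows of 6 of the 50 members, namely GCLC, GLRX, GPX4, GSTM3, NQO1 and TXN, and in 10.42% of all windows. These matches describe letters in the windows and were not tested for binding. The windows were placed by annotated starts and need not cover the same part of each promoter. For example, the end of the LOC102166944 window resembles the start of the MT1A window.

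The study describes the S areas as a mixture of fibroblasts and immune cells. The libraries held between 893912 and 4020796 counts on listed genes, and the shallowest was pregnant LE of gilt 01. Levels are given as CPM (counts scaled to a common library total) on 1 TMM scale set over the 22 libraries. The floor, 3 counts, equals 0.746 to 3.36 CPM depending on the library. The labels of the cell types were checked with marker genes. The summed level of 7 fibroblast markers was not higher in the libraries labelled S: it was 4650 to 8605 CPM in S of control gilts, 11510 to 17170 CPM in LE and 4336 to 46020 CPM in GE of control gilts. The summed level of 7 epithelial markers was 2611 to 3175 CPM in control S, 2865 to 3546 CPM in control LE and 759.5 to 2285 CPM in control GE. The gland marker ACP5 (uteroferrin) was higher in GE than in LE (log2 FC 4.88, FDR = 7.15e-05), whereas FOXA2 was not listed for LE. In S, ACP5 was at 180.5 to 592.4 CPM in controls and 260.2 to 2860 CPM in pregnant gilts. The gland marker FOXA2 was at 11.3 to 63.0 CPM in control S and 24.8 to 133 CPM in pregnant S. In GE it was at 16.6 to 79.1 CPM in controls and 45.6 to 109 CPM in pregnant gilts. For pregnant S of gilt 01 the fibroblast sum was 59340 CPM against 8191 and 12070 CPM for the other pregnant S libraries, and for control GE of gilt 02 it was 46020 CPM, with 7306 CPM for the smooth muscle markers. The results for S therefore refer to the libraries labelled S, which also hold transcripts of epithelial and gland markers.

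In LE, 9 of the 50 members were differentially expressed (DE) between pregnant and control gilts (edgeR quasi-likelihood test, FDR below 0.01 over 11415 genes). Transcripts of 8 genes were higher in pregnant gilts, for SOD2, PRDX6, GSTK1, GLRX2, TXNRD1, GSS, PRDX5 and GCLM, and that of GPX4 was lower. Of all genes tested in LE, 10.0% were called, 6.33% as higher and 3.71% as lower. At an FDR below 0.05, 17 members were called (22.4% of all genes). The median log2 FC of the members was 0.14, beside 0.0076 for all genes. Groups did not overlap for 14 members that were higher (14.1% of all genes) and for 6 that were lower (12.6% of all genes). With 1 gilt left out at a time, 3 to 14 members were called, 3 without control gilt 04, 4 without control gilt 02, 5 without control gilt 06 or pregnant gilt 05 and 14 without pregnant gilt 14. SOD2, PRDX6 and TXNRD1 kept their call in 8 of 8 such fits, PRDX5 in 7, GCLM in 5, GLRX2 in 4, GPX4 in 3, and GSS and GSTK1 in 1 each. These are bulk libraries, in which fewer cells of a type and less RNA per cell cannot be told apart.

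SOD2, the manganese superoxide dismutase of mitochondria, had the largest increase of the members in LE. Its level was 9.78, 10.1, 10.6 and 14.3 CPM in LE of the control gilts 02, 04, 06 and 13, and 60.2, 209, 117 and 110 CPM in the pregnant gilts 01, 03, 05 and 14. Every pregnant library was far above every control library, although the pregnant libraries differed among themselves more than 3-fold. The mean rose from 11.2 ± 2.1 to 124 ± 62.1 CPM (SD, n = 4 each). The log2 FC was 3.46 ± 0.36 (SE; edgeR, FDR = 0.000183).

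CAT and SOD3 were also higher in every pregnant LE library than in any control. For CAT, the peroxisomal catalase, the control libraries had 113.5 to 125.8 CPM and the pregnant libraries 146, 208, 279 and 545 CPM, but with a log2 FC of 1.29 and FDR = 0.0235 (edgeR) it was not called. SOD3, the extracellular dismutase, had a log2 FC of 1.37 (edgeR, FDR = 0.0542). The cytosolic SOD1 showed almost the same level in both groups, with 71.2 to 82.5 CPM in controls, 75.9 to 97.7 CPM in pregnant gilts and a log2 FC of 0.19.

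Of the peroxiredoxins, which reduce peroxides through a reactive cysteine, PRDX6 and PRDX5 were called in LE. PRDX6, which uses glutathione rather than thioredoxin, was at 53.4, 60.9, 60.3 and 60.0 CPM in controls and at 434, 595, 561 and 188 CPM in pregnant gilts. The controls lay close together and the lowest pregnant library, gilt 14, was still more than 3-fold above them, with a log2 FC of 2.91 ± 0.32 (SE; edgeR, FDR = 0.00029). Of the annotated exon sequence of PRDX6, 35.66% of 50-base windows also lie in LOC100624136, which overlaps it on the genome, so its counts are uncertain. Whether the authors' counting used strand is not given in the sources used here. PRDX5 rose from 24.2 to 32.7 CPM in controls to 55.4 to 91.0 CPM in pregnant gilts (log2 FC 1.21, edgeR, FDR = 0.00248).

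PRDX1 and PRDX2 had differences of opposite sign that missed the threshold. PRDX1 had 29.3 to 51.9 CPM in controls and 68.5 to 95.2 CPM in pregnant LE (log2 FC 0.96, edgeR, FDR = 0.0103). PRDX2 had 147.3 to 152.6 CPM in controls and 43.4 to 101 CPM in pregnant LE (log2 FC -0.91, edgeR, FDR = 0.0184). For both, the groups did not overlap. PRDX3, PRDX4 and SRXN1, the sulfiredoxin that repairs overoxidised peroxiredoxins, had log2 FC of 0.02, 0.39 and 0.32 and were not called.

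TXNRD1, the cytosolic thioredoxin reductase that passes electrons from NADPH to thioredoxin, was the 1 called member of 6 in the thioredoxin system. LE of the controls had 73.7, 55.0, 44.8 and 57.4 CPM, and LE of the pregnant gilts 218, 250, 153 and 175 CPM. The groups were well apart, with a log2 FC of 1.78 ± 0.21 (SE; edgeR, FDR = 0.00043). Its substrate TXN was at 126.0 to 144.7 CPM in controls and 128.9 to 200.5 CPM in pregnant gilts, and the other 4 members (TXN2, TXNIP, TXNL1 and TXNRD3) had log2 FC from -0.35 to 0.17.

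GLRX2, the mitochondrial glutaredoxin, rose from 4.51, 5.17, 6.35 and 6.09 CPM in controls to 14.5, 27.6, 22.5 and 13.3 CPM in pregnant gilts (log2 FC 1.81 ± 0.32 (SE), edgeR, FDR = 0.00302), without overlap between the groups. The cytosolic GLRX was split within the pregnant group, at 38.3 and 23.8 CPM in gilts 05 and 14 but at 7.23 and 5.31 CPM in gilts 01 and 03, close to the controls (4.59 to 7.14 CPM), and was not called (edgeR, FDR = 0.0428).

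Glutathione synthesis contributed GSS and GCLM. GSS, which joins glycine to complete glutathione, was at 20.7, 16.6, 16.2 and 11.7 CPM in control LE and at 62.6, 55.7, 54.9 and 22.5 CPM in pregnant LE. Gilt 14 was near the controls and the remaining 3 pregnant gilts were far above them (log2 FC 1.56 ± 0.32 (SE), edgeR, FDR = 0.00712). GCLM, the modifier subunit of the rate-limiting ligase, was at 58.7, 77.8, 76.6 and 83.4 CPM in controls and at 136, 152, 240 and 146 CPM in pregnant gilts (log2 FC 1.18 ± 0.22 (SE), edgeR, FDR = 0.00382), again without overlap.

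The catalytic subunit GCLC overlapped between the groups, with 41.2 to 73.7 CPM in controls and 37.3 to 134 CPM in pregnant gilts, and so did GSR, the reductase that regenerates glutathione. Of the 6 glutathione transferases, GSTK1 was called. It was at 47.4, 50.3, 33.9 and 10.8 CPM in controls and at 143, 191, 81.2 and 137 CPM in pregnant gilts (log2 FC 1.95 ± 0.43 (SE), edgeR, FDR = 0.00971). The remaining 5 transferases (GSTA1, GSTA4, GSTM3, GSTO1 and GSTZ1) had log2 FC from -0.86 to 0.44, and the 3 microsomal transferases from -1.17 to -0.10, none of them called.

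GPX4, the peroxidase that reduces lipid hydroperoxides in membranes, was the called member with a decrease in LE. Its level was 65.4, 64.8, 75.2 and 64.4 CPM in controls and 15.7, 31.3, 20.7 and 37.7 CPM in pregnant gilts. Every pregnant library was below every control (log2 FC -1.32 ± 0.25 (SE), edgeR, FDR = 0.00491). The other 4 glutathione peroxidases, GPX1, GPX3, GPX7 and GPX8, had log2 FC from 0.03 to 0.68 and were not called.

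None of the 5 genes of the NRF2 axis passed the threshold in LE. NFE2L2 was at 375.5 to 706.5 CPM in controls and 340.9 to 817.4 CPM in pregnant gilts, and KEAP1 at 45.2 to 58.3 and 48.9 to 59.0 CPM, so that both overlapped. The quinone reductase NQO1 was at 10.8 to 18.8 CPM in controls and 19.3 to 29.7 CPM in pregnant gilts (log2 FC 0.72, edgeR, FDR = 0.0711), and the constitutive heme oxygenase HMOX2 had a log2 FC of 0.73 (edgeR, FDR = 0.022). The inducible heme oxygenase HMOX1 had 10.1 to 20.9 CPM and 11.11 to 21.7 CPM.

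**Figure D1:**
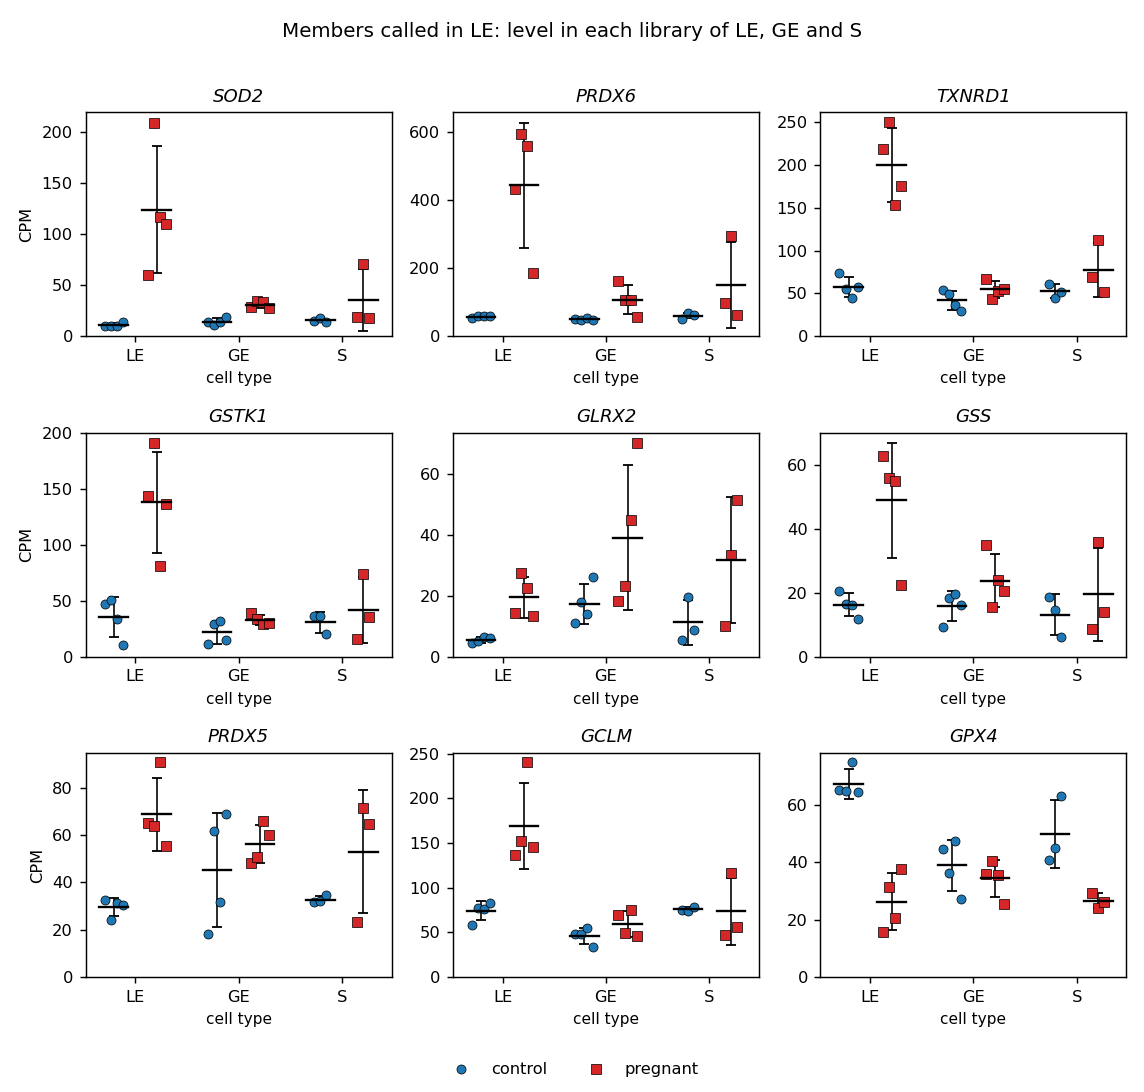
Level in CPM (vertical axes, linear, starting at 0) of the 9 members called in LE, in each library of LE, GE and S. Circles stand for control and squares for pregnant gilts, horizontal lines for the mean and bars for the SD (n = 4 per group in LE and GE, n = 3 in S). In LE the pregnant libraries of SOD2 (60.2 to 209 CPM) lay above all controls (9.78 to 14.3 CPM), and for GPX4 they lay below.

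The ferritins FTH1 and FTL, the heavy and light chains of the iron storage shell, had the highest levels per kb of annotated exon among the members. In control LE the means were 1440 CPM per kb for FTL and 1070 CPM per kb for FTH1, followed by MGST1 with 452 CPM per kb, whereas SOD2 had 6.69 CPM per kb. In pregnant LE, SOD2 reached 74.2 CPM per kb. FTH1 in LE had 1136, 1161, 921 and 1047 CPM in controls and 1435, 1787, 1389 and 1393 CPM in pregnant gilts. All pregnant libraries were above all controls, but the log2 FC of 0.49 was not called (edgeR, FDR = 0.062).

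FTL in LE had 1122, 1551, 1542 and 1172 CPM in controls and 1008, 1178, 1183 and 1527 CPM in pregnant gilts, with overlap and a log2 FC of -0.14. In GE, FTH1 had 956, 1647, 1158 and 1874 CPM in controls and 1424, 2495, 1430 and 1192 CPM in pregnant gilts. FTL there had 678, 1726, 1451 and 1913 CPM in controls and 811, 1683, 954 and 1031 CPM in pregnant gilts, and both genes overlapped between the groups. In S, FTH1 had 974, 1325 and 1092 CPM in control gilts 02, 04 and 13 and 1318, 1383 and 943 CPM in pregnant gilts 01, 05 and 14. FTL in S had 1049, 1766 and 1107 CPM in controls and 596, 1144 and 892 CPM in pregnant gilts, again with overlap. NOX4, an NADPH oxidase that produces hydrogen peroxide, was at 10.2 to 15.2 CPM in control LE and 6.02 to 20.1 CPM in pregnant LE.

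The 3 metallothionein members had lower levels in every LE library of pregnant gilts than in any control, with FDR values just above the threshold of 0.01. MT1D, the most abundant of the 3 per kb of exon, was at 24.8, 107, 308 and 48.5 CPM in LE of control gilts 02, 04, 06 and 13 and at 0, 1.59, 7.41 and 19.3 CPM in pregnant gilts 01, 03, 05 and 14 (log2 FC -3.86 ± 0.92 (SE), edgeR, FDR = 0.0145). MT1A was at 13.9, 22.6, 63.5 and 25.8 CPM in controls, at 6.33 CPM in pregnant gilt 14 and at 0 in the other 3 pregnant gilts (log2 FC -3.92 ± 0.93 (SE), edgeR, FDR = 0.0138). MT3 was at 4.89, 12.0, 27.5 and 10.1 CPM in controls and at 0, 0, 0.617 and 2.85 CPM in pregnant gilts (log2 FC -3.53 ± 0.81 (SE), edgeR, FDR = 0.0116).

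The groups did not overlap for any of the 3 genes, while the highest control was more than 4-fold above the lowest for each. Most pregnant values are at or under the floor of 3 counts, so that the fold changes are imprecise. The sum of the 3 genes was 43.6, 142, 399 and 84.3 CPM in controls and 0, 1.59, 8.02 and 28.5 CPM in pregnant gilts. Without pregnant gilt 14 all 3 genes were called in LE (edgeR, FDR = 0.00157 for MT1A, 0.00676 for MT1D and 0.00346 for MT3). With only the 6 gilts that have an S library, the FDR was 0.0547 to 0.0757.

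The neighbouring genes were lower in the same libraries. MT-2B was at 112, 188, 295 and 114.5 CPM in control LE and at 2.41, 11.2, 4.32 and 26.6 CPM in pregnant LE, and passed the threshold (log2 FC -3.86 ± 0.60 (SE), edgeR, FDR = 0.00157). LOC102166944 was at 36.5, 60.7, 89.6 and 47.8 CPM in controls and at 0, 1.59, 0 and 3.17 CPM in pregnant gilts (log2 FC -5.35 ± 0.64 (SE), edgeR, FDR = 0.00043). For both genes the groups were far apart. MT-2B was not called with only the 6 gilts that have an S library (edgeR, FDR = 0.016).

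MT1A shares 28.82% of its 50-base exon windows with LOC100739663, which was not listed, and 12.66% with LOC102166944, so its counts are uncertain. MT1D shares 2.98% of its windows with LOC100739663, and MT3 and MT-2B share none. Overlap with other genes also makes the counts of SOD1 (13.17% of windows, with SCAF4), PRDX2 (8.6%), TXN (11.74%), NFE2L2 (13.58%) and MGST2 (57.9%) uncertain. The exons of GSTO1 overlap no other gene, but 32.08% of its windows are shared in sequence with LOC100623931, so its counts are uncertain too.

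In GE and S the metallothioneins did not follow this pattern. MT1A in GE was at 20.3, 109, 94.1 and 106 CPM in controls and at 27.9, 54.4, 46.5 and 117 CPM in pregnant gilts. MT1D in GE was at 41.8, 389, 422 and 159 CPM in controls and at 106, 198, 198 and 160 CPM in pregnant gilts. MT3 in GE was at 3.24, 13.4, 29.0 and 13.96 CPM in controls and at 4.56, 21.3, 15.3 and 29.1 CPM in pregnant gilts.

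All 3 genes overlapped between the groups in GE, with log2 FC of -0.40, -0.60 and 0.24. In S, MT1A was at 11.7, 53.3 and 44.8 CPM in control gilts 02, 04 and 13 and at 10.9, 40.8 and 84.6 CPM in pregnant gilts 01, 05 and 14. MT1D in S was at 12.9, 245 and 68.7 CPM in controls and at 68.3, 194 and 178 CPM in pregnant gilts. MT3 in S was at 2.73, 23.3 and 9.19 CPM in controls and at 3.11, 11.7 and 38.6 CPM in pregnant gilts.

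The groups overlapped in S as well, with log2 FC of 0.36, 0.48 and 0.66. Gilt 02 had the lowest level of each of the 3 genes among the controls in all 3 cell types.

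**Figure D2:**
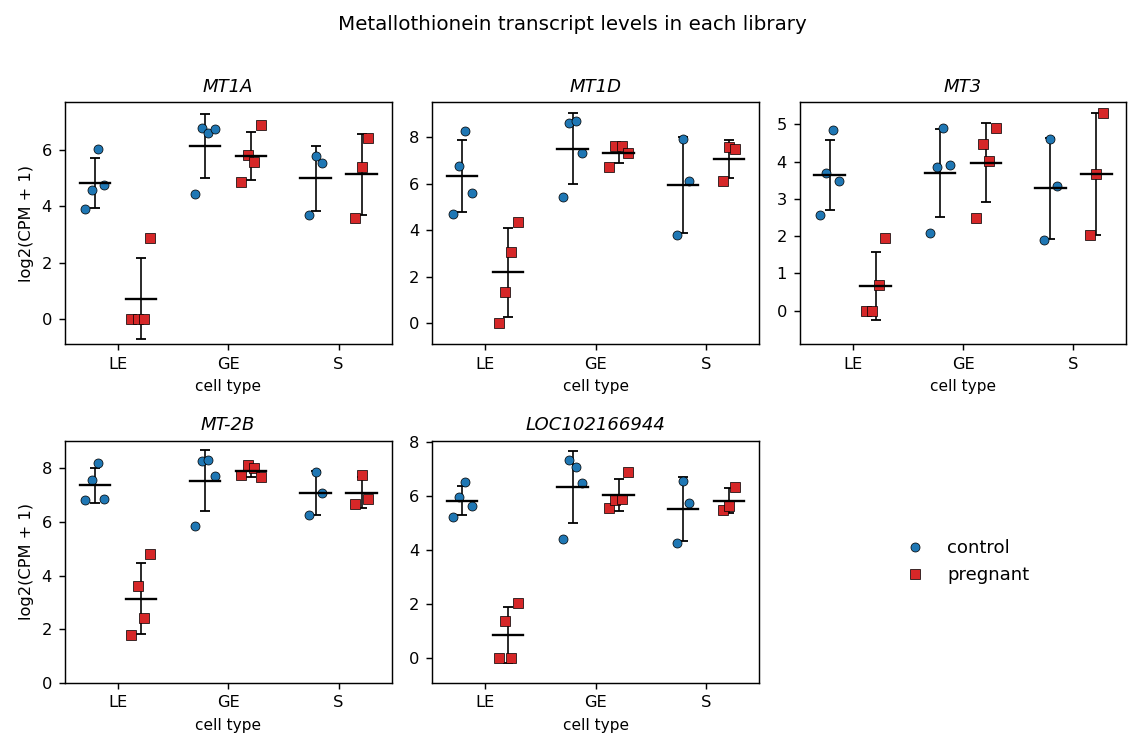
Level of the 3 metallothionein members (MT1A, MT1D, MT3) and of the neighbouring genes MT-2B and LOC102166944 in each library, as log2(CPM + 1) on the vertical axes, by cell type. Circles stand for control and squares for pregnant gilts, horizontal lines for the mean and bars for the SD (n = 4 per group in LE and GE, n = 3 in S); in LE all pregnant libraries lay below all controls, and in GE and S the groups overlapped.

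The difference of the pregnancy effect between cell types was tested in a fit of all 22 libraries with the gilt as a block. For MT3 the effect in GE exceeded that in LE by a log2 difference of 4.21 ± 0.61 (SE; edgeR, FDR = 0.00719), and it was the 1 member called of 49 (0.395% of all genes). For MT1A the difference was 4.09 (edgeR, FDR = 0.0145) and for MT1D 3.51 (edgeR, FDR = 0.0178). The neighbours MT-2B (4.26, FDR = 0.0076) and LOC102166944 (5.25, FDR = 0.00393) were called in the same test.

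The call of MT3 depends on the block. Without the replicate block no member was called for this difference, nor was any when the gilt entered as a random effect, and leaving out 1 gilt at a time gave 0 to 3 called members (0 without gilt 01, 02, 03, 04, 05 or 06 and 3 without gilt 14). SOD2 (-2.27, FDR = 0.0183), PRDX6 (-1.74, FDR = 0.0207), CAT (-1.22, FDR = 0.0217) and TXNRD1 (-1.40, FDR = 0.0401) had a weaker effect in GE than in LE at an FDR below 0.05 in the edgeR fit, and none of the 4 passed 0.01; with the 3 metallothioneins, 7 members had an FDR below 0.05 (2.93% of all genes). Between S and LE no member was called (0.0188% of all genes), and the log2 differences of the 3 metallothioneins were 3.95 to 4.33 (edgeR, FDR = 0.058 to 0.0661). Between S and GE no member was called (0.0% of all genes). At an unadjusted p below 0.05 there were 12 members for S against LE (15.2% of all genes) and 5 for S against GE (9.9% of all genes), and the likelihood ratio test of edgeR and the Wald test of DESeq2 each called 5 and 0.

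The gland marker ACP5 moved with the metallothioneins in LE. It was at 158.4 to 352.5 CPM in control LE and at 5.55 to 72.2 CPM in pregnant LE (log2 FC -2.82, edgeR, FDR = 0.0125), and at 646.7 to 2968 CPM in control GE and 1174 to 4650 CPM in pregnant GE. Taken gilt by gilt, LE of the controls had 5.33% to 34.2% (median 18.2%) of the ACP5 level of GE, but 27.7% to 73.2% (median 48.5%) of the summed level of the 3 metallothioneins. In pregnant gilts these shares were 0.153% to 1.55% for ACP5 and 0% to 9.3% for the metallothioneins. The part of gland transcripts in the LE difference was not tested.

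The epithelial markers themselves changed in LE: of 7 markers CDH1 and CLDN4 rose and KRT7, KRT8 and KRT19 fell, with summed levels of 2865 to 3546 CPM in controls and 2920 to 4204 CPM in pregnant gilts. The fibroblast sum in LE was 11510 to 17170 CPM in controls and 7610 to 20290 CPM in pregnant gilts, with 0 of 7 markers called. The endothelial sum was 548.0 to 841.6 and 538.4 to 1419 CPM, with 0 of 5 called, and the 3 listed leukocyte markers summed to 53.98 to 127.4 and 44.57 to 58.32 CPM, with 0 called. Smooth muscle markers were high in 1 pregnant LE library, that of gilt 01 (4361 CPM against 103.8 to 611.9 CPM in the other 7). Without that gilt GSS and GSTK1 lost their call and the other 7 of the 9 members kept it. GSS and GSTK1 each kept their call in only 1 of 8 fits with a gilt left out. The part of smooth muscle transcripts in these calls was not tested.

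In GE, 1 of the 50 members was DE at the threshold used for this cell type, an unadjusted p below 0.0021 (0.694% of 11676 genes). SOD2 was at 14.2, 10.9, 14.2 and 19.2 CPM in controls and at 28.9, 34.7, 33.6 and 28.0 CPM in pregnant gilts. The groups did not overlap, with a log2 FC of 1.09 ± 0.23 (SE), but in edgeR the FDR was 0.254. Its call in GE was kept in only 1 of 8 fits with a gilt left out.

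PRDX4, the peroxiredoxin of the secretory pathway, came close to the threshold. It was at 16.2 to 26.4 CPM in controls and 37.5 to 72.2 CPM in pregnant GE (log2 FC 1.16, edgeR, FDR = 0.306). PRDX6 was at 47.9 to 53.5 CPM in controls and at 163, 106, 109 and 56.3 CPM in pregnant GE (log2 FC 1.11, edgeR, FDR = 0.354). At an unadjusted p below 0.05 there were 10 members (8.09% of all genes), all of them higher in pregnant gilts. In all, 6 members were higher without overlap in GE (2.81% of all genes) and 0 were lower (2.16% of all genes). The median log2 FC of the members was 0.20, beside -0.0211 for all genes. The 6 were SOD2, PRDX1, PRDX4, PRDX6, GSR and GLRX.

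GPX7, GPX8 and NOX4 each had their highest GE value in control gilt 02 (62.4, 36.5 and 43.0 CPM), the library with the high fibroblast and smooth muscle sums given above.

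In S, 0 of 49 members were DE at an unadjusted p below 0.0021 (1.47% of 11532 genes) in the edgeR quasi-likelihood test, and 6 had an unadjusted p below 0.05 (12.5% of all genes). The likelihood ratio test of edgeR and the Wald test of DESeq2 called 1 member each, as did the quasi-likelihood test without control gilt 04 or pregnant gilt 14. GLRX came closest, at 3.90, 4.85 and 2.57 CPM in controls and 18.6, 33.1 and 9.81 CPM in pregnant gilts, without overlap (log2 FC 2.46 ± 0.55 (SE), edgeR, FDR = 0.144). GPX4 was again lower in every pregnant library, at 40.9, 45.2 and 63.2 CPM against 29.5, 24.1 and 26.4 CPM (log2 FC -0.87, edgeR, FDR = 0.274).

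Groups did not overlap for 5 members that were higher (7.26% of all genes), namely GLRX, GPX1, GSTM3, PRDX1 and PRDX4, and 4 that were lower (10.1% of all genes), namely GPX4, GSR, PRDX2 and PRDX3. SOD2 in S was at 15.2, 18.2 and 14.3 CPM in controls and at 18.6, 71.0 and 18.1 CPM in pregnant gilts. PRDX6 was at 52.6, 68.2 and 61.8 CPM in controls and at 97.0, 296 and 62.8 CPM in pregnant gilts. For both genes gilt 05 was the highest and gilt 14 lay within the range of the controls, and neither was called. GPX7 and GPX8 had 66.0 and 47.4 CPM in pregnant S of gilt 01, the library with the high fibroblast sum, against at most 15.02 and 15.3 CPM in the other pregnant S libraries.

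**Figure D3:**
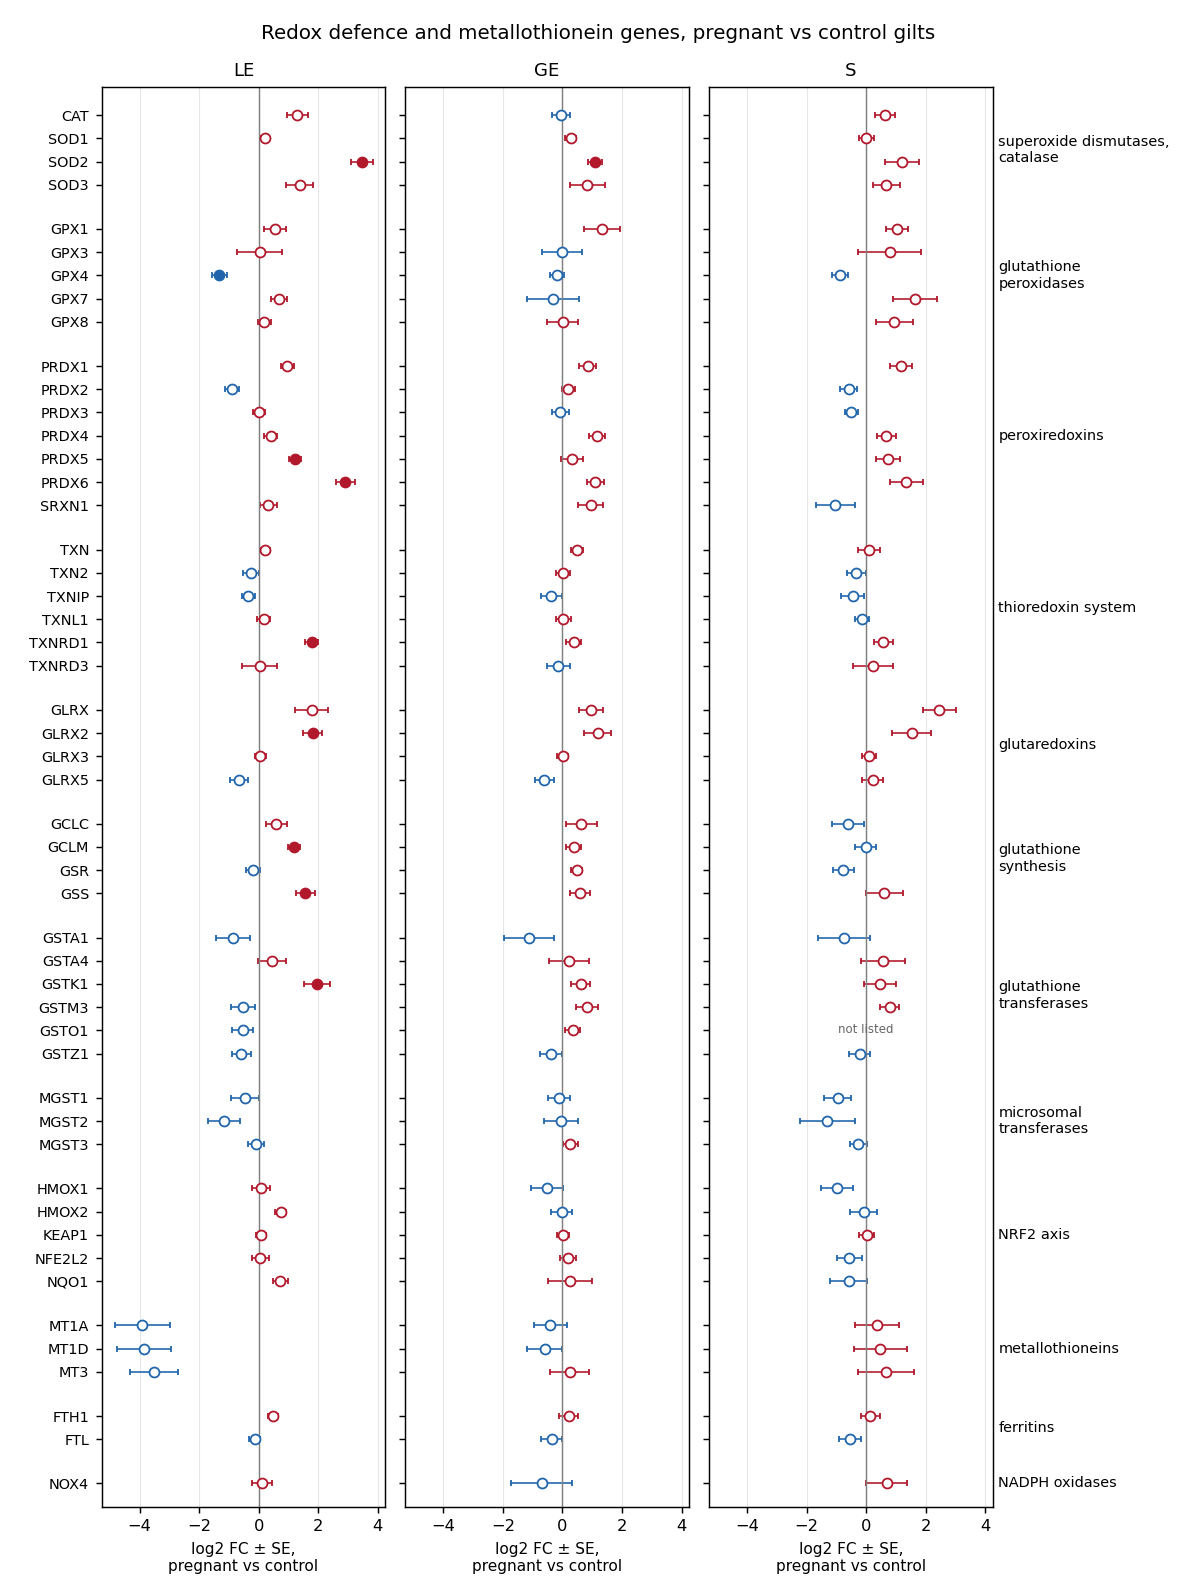
Log2 FC of pregnant against control gilts (horizontal axes) for the 50 members in LE, GE and S, ordered by role. Points are edgeR estimates and bars the SE; filled points passed the threshold of the cell type (9 in LE, 1 in GE, 0 in S), red marks higher and blue lower levels in pregnant gilts. The 3 metallothioneins stand at log2 FC of -3.92 to -3.53 in LE and -0.60 to 0.66 in GE and S.

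The cell types of the same gilts were compared in the fit of all libraries over 10643 genes. Between GE and LE, 15 of 49 members were called (20.8% of all genes), 7 of them higher in GE (10.4% of all genes) and 8 lower (10.4% of all genes). MT1A, GPX3, MT1D, GSTA1, MT3, GLRX2 and PRDX1 were higher in GE. HMOX1, NQO1, SRXN1, GSTK1, TXNRD1, GCLM, PRDX6 and SOD1 were higher in LE. The median log2 FC of the members was -0.15, beside -0.0196 for all genes.

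GPX3, the secreted glutathione peroxidase, was at 94.9, 112, 62.3 and 111 CPM in GE of controls against 19.9, 2.72, 11.3 and 5.86 CPM in LE. In pregnant gilts it was at 122, 188, 58.0 and 9.21 CPM in GE against 27.7, 9.03, 7.10 and 2.22 CPM in LE. It was higher in GE in 8 of 8 gilts, with a log2 FC of 3.25 ± 0.42 (SE; edgeR, FDR = 0.000138). GSTA1, an alpha class glutathione transferase, was at 30.01, 386, 45.2 and 220 CPM in GE of controls against 19.5, 31.3, 7.41 and 21.8 CPM in LE, and at 25.8, 104, 33.3 and 142 CPM against 2.41, 5.31, 10.2 and 22.5 CPM in pregnant gilts. It was higher in GE in 8 of 8 gilts (log2 FC 2.69 ± 0.36 (SE), edgeR, FDR = 0.000168), and 44.22% of its exon windows are shared with LOC106504562.

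GPX3 and GSTA1 were the 2 members called within the control gilts alone (1.84% of all genes), with log2 FC of 3.52 and 2.60, and both were called within the pregnant gilts as well (2.98 and 2.78).

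Over both groups of gilts the log2 FC of GE against LE was 3.41 for MT1A, 2.92 for MT1D and 2.21 for MT3 (edgeR, FDR = 7.4e-05, 0.000102 and 0.000209), with higher levels in GE in 8, 8 and 7 of 8 gilts. Within control gilts the values were 1.36, 1.17 and 0.10 (edgeR, FDR = 0.0551, 0.0991 and 0.891). Within pregnant gilts they were 5.45, 4.67 and 4.31 (edgeR, FDR = 0.000161, 0.000164 and 0.000161). In the test of the difference between the groups, given above, MT3 was called and MT1A and MT1D were not.

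In the pregnant gilts 12 members were called between GE and LE (15.8% of all genes), 7 of them higher in LE. SOD2, at -1.88, TXNRD1, at -1.86, and PRDX6, at -1.96, were among these 7 with GCLM, GSTK1, HMOX1 and NQO1. SOD2 was not called over all gilts (log2 FC -0.75, edgeR, FDR = 0.0189).

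HMOX1 was lower in GE than in LE in 8 of 8 gilts, at 1.99 to 8.21 CPM in control GE and 10.1 to 20.9 CPM in control LE (log2 FC -1.59, edgeR, FDR = 0.000183). NQO1 and SRXN1 were lower in GE in 8 of 8 gilts too, with log2 FC of -1.59 and -1.45, as were GCLM (-1.09), TXNRD1 (-1.16), PRDX6 (-1.09) and SOD1 (-0.56). PRDX1 was higher in GE in 8 of 8 gilts (0.78).

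Between S and LE, the 3 metallothioneins were the members called (1.69% of all genes), with log2 FC of 2.62 for MT1A, 2.24 for MT1D and 2.15 for MT3 (edgeR, FDR = 0.0037, 0.00489 and 0.0037). They were higher in S in 5, 5 and 4 of 6 gilts. The gland marker ACP5 and the zinc exporter SLC30A2 were also higher in S than in LE. Their log2 FC were 3.45 and 4.43 (edgeR, FDR = 0.00439 and 0.00211). Taken gilt by gilt, S had 6.08% to 81.1% of the ACP5 level of GE in controls and 22.2% to 79.0% in pregnant gilts. The part of gland transcripts in the difference between S and LE was not tested. At an FDR below 0.05, 10 members were called (8.02% of all genes). Without the replicate block none was called, with the gilt as a random effect MT3 lost its call (limma, FDR = 0.0101), and with a gilt left out 0 to 3 members were called, 0 of them without gilt 01, 04 or 05. Within control gilts no member was called (0.0% of all genes; log2 FC of the 3 genes 0.17 to 0.45), and within pregnant gilts 7 were (3.14% of all genes), namely the 3 metallothioneins as higher and GCLM, PRDX6, SOD2 and TXNRD1 as lower in S. Between S and GE, 0 of 49 members were called (0.0% of all genes) in the edgeR quasi-likelihood test, 9 had an unadjusted p below 0.05 (13.2% of all genes), and the likelihood ratio and Wald tests also called 0.

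**Figure D4:**
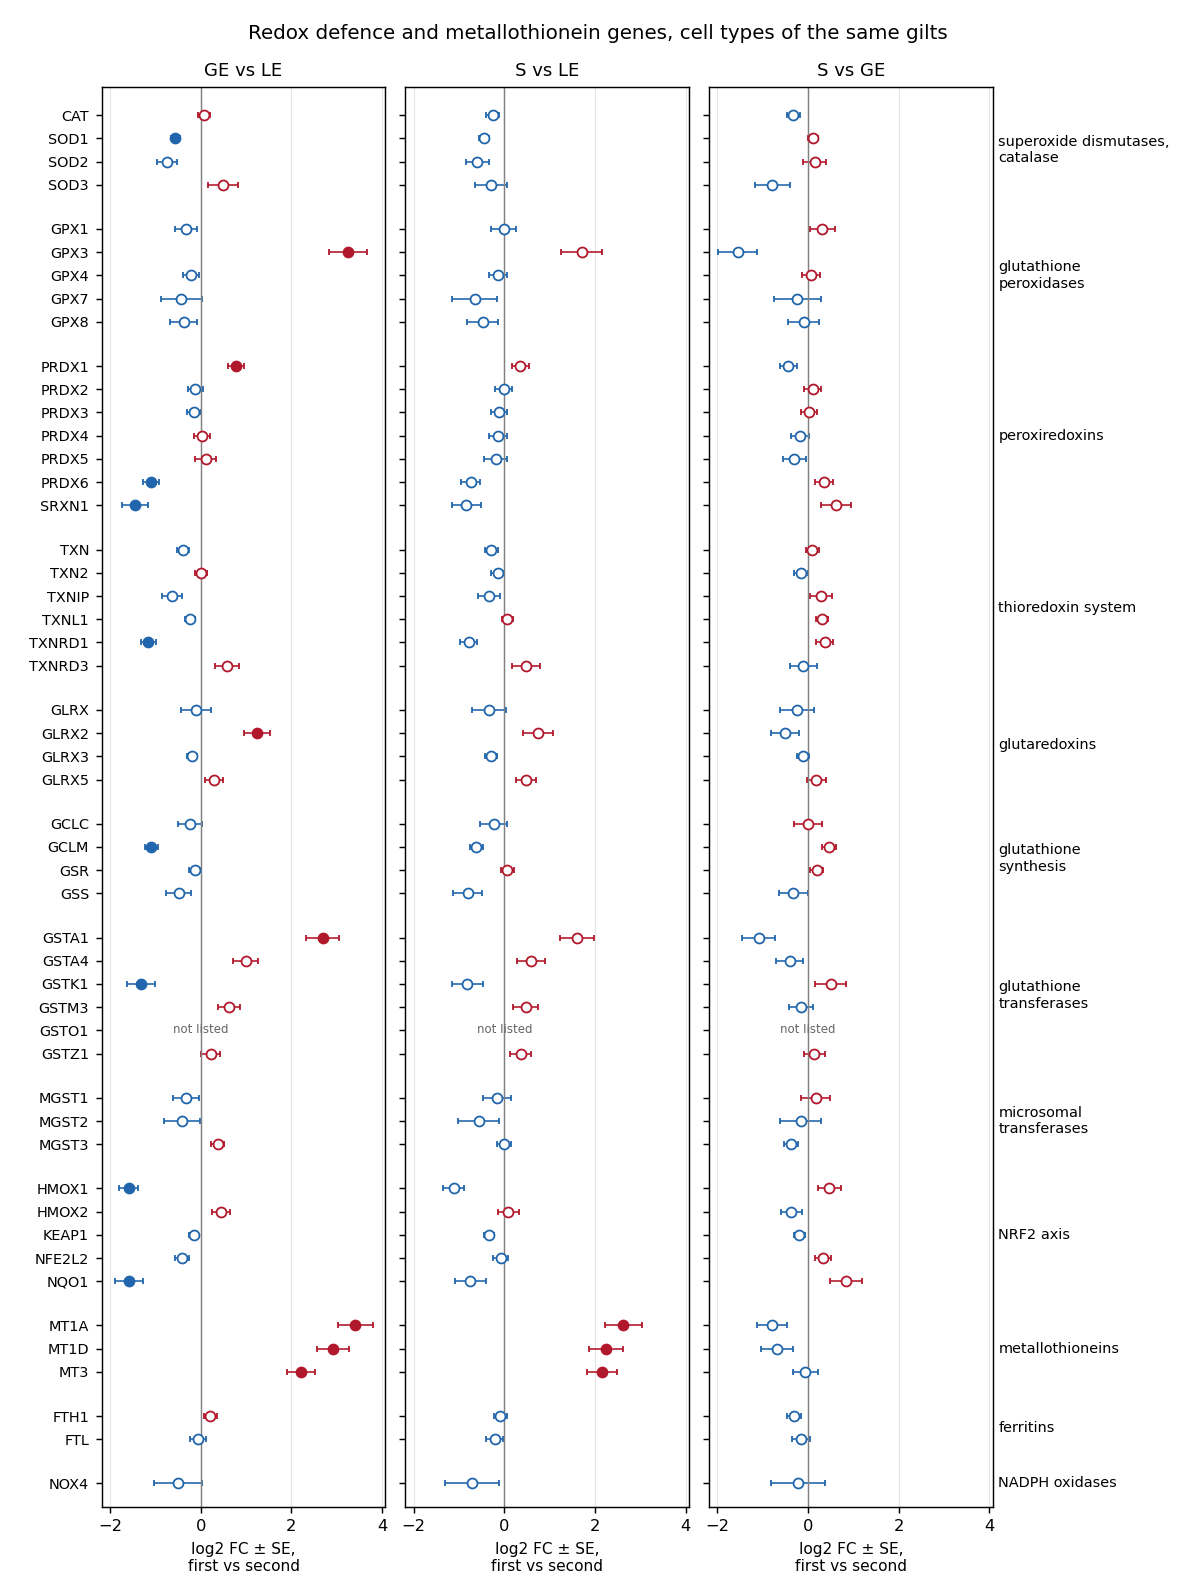
Log2 FC between cell types of the same gilts (horizontal axes) for the members, ordered by role, for GE against LE, S against LE and S against GE. Points are estimates of the edgeR fit of all 22 libraries with the gilt as a block and bars the SE; filled points had an FDR below 0.01 (15, 3 and 0), red marks higher and blue lower levels in the first-named cell type. GSTO1 was not listed in all 3 tables.

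Genes around the members were followed in 5 lists, to be read against the 10.0% of all genes called in LE. Of 19 listed genes for the supply of glutathione and NADPH, 4 were called in LE. TKT and TALDO1, both of the non-oxidative pentose phosphate pathway, rose with log2 FC of 1.94 and 1.51 (edgeR, FDR = 0.00341 and 0.00054). NADK2, the mitochondrial NAD kinase, and LANCL1, a glutathione-binding protein, fell with -1.51 and -1.06 (edgeR, FDR = 0.00527 and 0.00807). The median log2 FC of the list was 0.12.

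Of 22 regulators and further targets of NRF2, 3 were called in LE, with a median log2 FC of 0.01. MAFF, a small MAF protein that pairs with NRF2, was at 8.47 to 23.7 CPM in controls and 50.4 to 108 CPM in pregnant gilts (log2 FC 2.43, edgeR, FDR = 0.000852), whereas the sestrins SESN2 and SESN3 fell with -1.40 and -0.94 (edgeR, FDR = 0.00376 and 0.00803). Of 21 selenoproteins and methionine sulfoxide reductases, SELENOH was called (1.84, edgeR, FDR = 0.00531). Of 2 listed NADPH oxidase partners, RAC1, a small GTPase of the oxidase complexes, was called (1.55, edgeR, FDR = 0.000128).

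Of 35 genes for zinc, copper and iron handling, 4 were called in LE, a share near the 10.0% of all genes, with a median log2 FC of 0.09. SLC30A2, a zinc exporter into vesicles, was at 7.50 to 24.0 CPM in control LE and at 0, 0, 0.617 and 0.633 CPM in the pregnant gilts 01, 03, 05 and 14 (log2 FC -4.76, edgeR, FDR = 0.00116), all at or under 2 counts. It was at 80.7 to 291 CPM in control GE and 55.1 to 216 CPM in pregnant GE, and higher in GE than in LE by 5.66 (edgeR, FDR = 3.23e-05). Like ACP5, it was at 2.94% to 26.8% of the GE level in control LE.

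SLC30A5, a zinc transporter of the secretory pathway, rose in LE (1.20, edgeR, FDR = 0.00076). STEAP4, a metalloreductase for iron and copper, was at 33.5 to 78.0 CPM in controls and 171 to 846 CPM in pregnant LE (3.22, edgeR, FDR = 0.00271). SLC31A2, a copper transporter, fell in LE (-1.92, edgeR, FDR = 0.00146) and in S (-1.93, edgeR, FDR = 0.0807). Ceruloplasmin (CP) was the other gene of the list called in S (-1.79, edgeR, FDR = 0.0739). In GE the zinc transporters SLC39A7 and SLC39A11 were called, with log2 FC of 0.97 and 1.16 (edgeR, FDR = 0.216 and 0.146). MTF1, the metal-responsive factor, was not called in any pregnancy comparison and was higher in GE than in LE by 0.57 (edgeR, FDR = 0.003).

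In the other lists no gene was called in GE or S between pregnant and control gilts.

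Between GE and LE of the same gilts, where 20.8% of all genes were called, genes for the supply of glutathione and NADPH were called in both directions. The dipeptidase CNDP2 was higher in GE (1.01), and TKT, NADK, PGLS and TALDO1 were lower (-1.21 to -0.53). Of 20 NRF2 regulators and targets, SESN3 and UGDH were higher in GE (1.86 and 1.03) and TRIM16, MAFF, SESN2, DPP3 and PARK7 lower (-1.78 to -0.59). Of 20 selenoproteins and methionine sulfoxide reductases, SEPSECS, SELENOK and MSRA were higher in GE (1.33, 0.85 and 0.84).

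Of 34 genes for metal handling, 7 were called, a share near the 20.8% of all genes. SLC30A2, MTF1 and SLC11A2 were higher in GE and STEAP4, TFRC, SLC39A10 and SLC30A5 were lower (-2.06 to -0.75). STEAP4 and MAFF, which rose in pregnant LE, were higher in LE than in GE, as were TXNRD1, PRDX6, GSTK1 and GCLM among the members. This comparison averages both groups, so the rise in pregnant LE itself enters it. None of these genes was called within control gilts, whereas STEAP4 and MAFF were called within pregnant gilts (log2 FC -2.22 and -2.45). GLRX2, which also rose in pregnant LE, was higher in GE, and SOD2, GSS and PRDX5 were not called. The 1 NADPH oxidase partner in the fit of all libraries was not called.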

How the data were processed

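RNA-seq libraries of LE, GE and S from 8 gilts were analysed, with groups taken from the labels. The deposited tables hold raw read counts per gene, 1 table per cell type. According to the study's methods, the authors clipped adapters, aligned the reads to Sscrofa11.1 with Hisat2, removed PCR duplicates by random bases in the adapters and dropped genes with low CPM. How reads were counted, whether by strand, and the CPM limit are not given in the sources used here, and genes dropped from a table could not be tested. All 12401 gene IDs matched the annotation.

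After TMM normalization each table was fitted in edgeR 4.0.16 under R 4.3.3, with a two-sided quasi-likelihood F test and Benjamini-Hochberg adjustment over all genes of the table. Genes were called at an FDR below 0.01 in LE and, after the study's own choice, at an unadjusted p below 0.0021 in GE and S. Cell types, and the difference of the pregnancy effect between them, were tested on the 10643 genes of all 3 tables with the gilt as a block. The gilt number in the labels names the animal. Deviations from the group means correlated within gilts with medians of 0.259 (LE and GE), 0.314 (LE and S) and 0.472 (GE and S). The correlation was above 0.1 in 6 of 8, 6 of 6 and 5 of 6 gilts. Between gilts the medians were -0.0762, -0.137 and -0.189, but centring on group means itself draws these values negative, so they are no independent reference. CPM were computed for display. Replicates are separate animals, and total counts of 893912 to 4020796 per library limit the precision of genes with few counts.

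The members and gene lists were chosen with earlier results of these data known. Genes named are the members, and genes of the lists where called, except for a result that is not reported here. Alternatives were the likelihood ratio test, DESeq2 1.42.0, limma 3.58.1 with the gilt as a random block, other normalizations and filters, and fits without 1 gilt. Fits were tested on simulated data. Promoter windows were read with samtools 1.23.1.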

Additional observations from a re-analysis of the deposited data

Results flagged for a closer look

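In 84 groups of 4 libraries (21 genes), 7 had a library that stood apart from the other 3 by Dixon's criterion on the log2(CPM + 1) scale, and chance alone gives about 1 in 20 groups. In pregnant LE, gilt 14 had the lowest GSS level (22.5 CPM, others 54.9 to 62.6 CPM) and was the only library with MT1A reads (6.33 CPM, others 0). With the others all at 0, any level above 0 would have met the criterion, so the MT1A flag carries no weight. In the same group, gilt 03 had the highest FTH1 level (1790 CPM, others 1390 to 1430 CPM). In control LE, gilt 06 was highest for GPX4 (75.2 CPM, others 64.4 to 65.4 CPM) and gilt 02 lowest for PRDX6 (53.4 CPM, others 60.0 to 60.9 CPM). In control GE, gilt 02 was lowest for MT1A (20.3 CPM, others 94.1 to 109 CPM), in the library with the high fibroblast and smooth muscle sums, and gilt 04 was lowest for HMOX1 (1.99 CPM, others 7.7 to 8.21 CPM). The pregnancy effect on MT3 differed between GE and LE by a log2 difference of 4.21 (edgeR quasi-likelihood test with the gilt as a block, FDR = 0.00719). MT3 had 0 to 9 counts per library in pregnant LE.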

How the results depend on the processing

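Of 583 alternative values for 37 named results, 479 kept direction and side of the threshold, 83 kept the direction but lost the call, 21 gained a call and 0 reversed. In LE (9 members called) the likelihood ratio test and DESeq2 each called 16, the 6 gilts with an S library 3, an FDR below 0.05 17, and fits without 1 gilt 3 to 14. In GE (1) the values were 3 and 3, 0 with the 6 gilts, 0 at an FDR below 0.05 or 0.01 and 0 to 1 without 1 gilt. In S (0) they were 1 and 1, and 0 to 1 without 1 gilt. For GE against LE (15), 8 members were called when at least 10 counts were required in every library, 2 within control gilts and 11 to 16 without 1 gilt. That filter drops MT1A, MT1D, MT3, GPX3, GSTA1, HMOX1, NQO1 and SRXN1, which therefore could not be called with it. For S against LE (3), the count was 0 with that filter, 8 by the likelihood ratio test and 10 by DESeq2. The 3 called metallothioneins had 0 counts in pregnant LE of gilt 01, so the count with the filter could not include them. At an FDR below 0.05 it was 10, within control gilts 0, within pregnant gilts 7 and without 1 gilt 0 to 3. For the difference of the pregnancy effect between GE and LE (1), the count was 0 with the filter, which 35 members pass and MT3 does not. It was 7 by the likelihood ratio test, 7 by DESeq2, 7 at an FDR below 0.05, 0 with the 6 gilts and 0 to 3 without 1 gilt. Between S and LE (0) the likelihood ratio test and DESeq2 each called 5. For the alternative tests, filters and fits without gilts, here and above, the share of all genes called is not given. Changes in these counts are therefore not results about the members. At an FDR below 0.05 the shares of all genes were 22.4% in LE, 8.02% for S against LE and 2.93% for the difference between GE and LE.

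Without the replicate block, 0 members were called for S against LE and 0 for the difference between GE and LE, and MT3 and NQO1 lost their call for GE against LE. With the gilt as a random block the difference between GE and LE gave 0, GLRX2 lost its call for GE against LE and MT3 for S against LE. GSTK1 lost its call for GE against LE with the 6 gilts. Within-group contrasts were chosen after seeing the data. Low counts limit the precision of the metallothioneins in pregnant LE, where most values are at or under 3 counts. Pregnant LE of gilt 01 was shallow (893912 counts). That of gilt 05 had 3499461 counts, 26 of them on the 3 genes, and control LE of gilt 02 had 2628893, with 116 on these genes. The causes of the shifts between settings were not tested.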
